A study of Homo sapiens with 6 samples.

Results

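Ketone bodies are small fuels that the liver makes from acetyl-CoA and that other tissues burn. The genes described here are 7 that encode enzymes of ketone body use and a transporter of ketone bodies: OXCT1, OXCT2, BDH1, BDH2, ACAT1, AACS and SLC16A1. They were taken from the 56832 gene symbols of a table of read counts by matching the symbol exactly, and all 7 were found. OXCT1 was picked because its counts nearly vanish in KO cells, so its difference between the groups is given as a description with no test. The other 6 were listed for their place in the pathway, but by someone who knew results of these data. RNA was measured in 6 libraries of HEK293T, a human embryonic kidney line that expresses the SV40 large T antigen and that the labels call epithelial-like. The groups were 3 libraries of wild-type (WT) 293T cells and 3 of 293T cells labelled SMARCA3 KO, a knockout of the gene HLTF, which encodes the SMARCA3 protein. All cells were grown in DMEM with fetal bovine serum, and no treatment or time point is named. The labels do not say whether the knockout is 1 clone or how it was made, nor whether replicates were separate cultures, so a p-value here weighs only how far these samples lie apart, and that spread may be technical.

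In tissues that burn ketone bodies, the membrane carrier encoded by SLC16A1 (MCT1) lets beta-hydroxybutyrate, acetoacetate and lactate cross the membrane. BDH1 in mitochondria oxidises beta-hydroxybutyrate to acetoacetate, OXCT1 (SCOT) activates acetoacetate with the CoA group of succinyl-CoA, and ACAT1 splits the acetoacetyl-CoA so formed into acetyl-CoA for the citric acid cycle. AACS activates acetoacetate in the cytosol instead, for the synthesis of lipids. OXCT2 is a paralog of OXCT1 best known from testis, and BDH2 is a cytosolic short-chain dehydrogenase that shares a name with BDH1.

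The sequence before the transcript start is shown for the pair of genes with the least mRNA left in KO cells, OXCT1 and BDH1, and for BDH2 and ACAT1, whose reductions were small. Windows hold the 250 bases before a RefSeq transcript start (GRCh38.p14), and of each only the stretch outside the GENCODE exons of the gene is printed, so all are upstream of or between exons. Capitals mark a GC box, spelled GGGCGG, on either strand. They also mark a TATA box, spelled TATAAA, on either strand. A CCAAT box, CCAAT on either strand, is in capitals too, and a match that runs past the printed stretch shows in part.
OXCT1, chr5:41870520-41870675, minus strand: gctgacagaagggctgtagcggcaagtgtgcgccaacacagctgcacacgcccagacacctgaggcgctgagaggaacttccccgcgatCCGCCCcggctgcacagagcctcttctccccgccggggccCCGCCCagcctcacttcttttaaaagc
BDH1 upstream start, chr3:197573344-197573593, minus strand: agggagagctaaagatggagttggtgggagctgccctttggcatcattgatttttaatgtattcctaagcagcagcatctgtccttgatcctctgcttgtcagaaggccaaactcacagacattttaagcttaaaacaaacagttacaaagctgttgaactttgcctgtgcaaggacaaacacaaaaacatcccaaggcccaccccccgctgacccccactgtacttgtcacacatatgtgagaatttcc
BDH1 downstream start, chr3:197556049-197556218, minus strand: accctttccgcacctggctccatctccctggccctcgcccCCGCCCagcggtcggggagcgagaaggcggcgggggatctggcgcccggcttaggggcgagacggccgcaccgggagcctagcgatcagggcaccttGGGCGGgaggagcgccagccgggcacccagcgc
BDH2, chr4:103099884-103100084, minus strand: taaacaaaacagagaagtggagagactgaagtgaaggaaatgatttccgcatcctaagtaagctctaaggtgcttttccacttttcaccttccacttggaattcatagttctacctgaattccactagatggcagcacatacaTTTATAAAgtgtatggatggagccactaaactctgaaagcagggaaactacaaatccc
ACAT1, chr11:108121317-108121515, plus strand: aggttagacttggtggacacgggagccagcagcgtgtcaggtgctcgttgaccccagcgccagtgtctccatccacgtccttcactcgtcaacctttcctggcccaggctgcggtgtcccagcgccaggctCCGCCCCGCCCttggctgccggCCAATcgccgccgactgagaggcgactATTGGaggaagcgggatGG
Counted over the whole windows, that of OXCT1 held 25 CG dinucleotides and 3 GC boxes, and that of ACAT1 held 23 CG dinucleotides and 3 GC boxes. The downstream window of BDH1 held 34 CG dinucleotides and 3 GC boxes, while its upstream window held 1 CG dinucleotide and 0 GC boxes. BDH2 had 2 CG dinucleotides and 2 TATA box matches, 1 on each strand, that share bases. OXCT2 and AACS, not printed, had 16 and 28 CG dinucleotides with 2 and 3 GC boxes, and the further RefSeq starts of OXCT1 and ACAT1 had 2 and 27 CG dinucleotides with 0 GC boxes. Over 35116 RefSeq windows of this length the median was 11 CG dinucleotides, and 42.6% held a GC box, 10.7% a TATA box and 32.0% a CCAAT match. Windows above that median CG count stood before OXCT1, the downstream start of BDH1, ACAT1, AACS and OXCT2. Windows below it stood before BDH2, the upstream start of BDH1 and the further start of OXCT1. Which start these cells use was not determined, and a link between CG content and the falls was not tested.

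Total counts were 38199454 to 41593655 in the wild-type libraries and 33125811 to 36804337 in the KO libraries. Levels are counts per 1000000 (CPM), scaled by TMM over the 18061 genes tested. HLTF, the targeted gene, measured 215, 191 and 195 CPM in WT replicates 1 to 3 and 141, 140 and 149 CPM in KO replicates 1 to 3, so its mRNA was lower in each knockout library but present. Of the 40 tested genes nearest to HLTF on its chromosome 29 were called lower, 2 higher and 9 not called, with a median log2 fold change of -0.57 beside -0.48 for HLTF itself. A gene was called when the edgeR adjusted p was under 0.05. By that rule 31.8% of the tested genes were called, 14.0% higher and 17.7% lower in KO cells, and the median log2 fold change of all tested genes was 0.00. Of the epithelial markers EPCAM, CDH1, KRT8, KRT18 and KRT19, KRT19 had a count of 0 in every library, and CDH1, KRT8 and KRT18 were called lower. EPCAM had 46, 27 and 36 counts in WT cells and 7, 8 and 16 in KO cells. It passed the filter on low counts only through its WT libraries, so no call is read for it. The summed level of these epithelial markers was 40.7 to 45.6 CPM in WT cells and 20.5 to 21.8 CPM in KO cells. Of 5 kidney lineage markers EYA1 and WT1 were called lower and PAX2 higher, with a summed level of 27.8 to 29.7 CPM in WT cells and 20.5 to 21.1 CPM in KO cells. Of 4 proximal tubule markers LRP2 and CUBN were called lower, SLC22A6 was at 0 in every library, and the sum was 39.1 to 44.8 CPM against 20.4 to 21.03 CPM. The sums overlapped between the groups for fibroblast markers (6.87 to 8.57 and 6.41 to 7.40 CPM) and blood cell markers (1.83 to 2.67 and 1.98 to 2.51 CPM). The part of these shifts in the results below was not tested. Of 7 markers of hepatocytes, the cells that make ketone bodies, APOB and SERPINA1 were at 0 in all libraries, ALB, APOA1, TTR and FGB had under 0.2 CPM on average in either group, and CPS1 carried nearly all of their summed level of 39.9 to 45.0 CPM in the WT and 45.4 to 45.9 CPM in the KO libraries.

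OXCT1 and BDH1, the mitochondrial enzymes that take beta-hydroxybutyrate to acetoacetyl-CoA, had almost no mRNA left in KO cells. ACAT1, AACS and BDH2 fell to between 79.8% and 81.7% of their wild-type level, and no difference was called for SLC16A1 or OXCT2. Of the 7 genes, 5 were thus called lower, 0 higher and 2 not called, beside 17.7% of all tested genes called lower. Since OXCT1 was picked from this contrast and BDH1 passed the filter on low counts only through its wild-type libraries, nothing is read from that count. All 7 passed that filter.

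OXCT1 lies on chromosome 5 from 41730065 to 41870519 on the minus strand (hg38). It had 1227, 1090 and 1048 counts in WT replicates 1 to 3 and 25, 19 and 22 counts in KO replicates 1 to 3. These are 29.6, 28.0 and 27.5 CPM against 0.728, 0.516 and 0.667 CPM. Every knockout library lay far below every wild-type library, and the libraries within a group lay close together. The mean was 28.3 ± 1.09 CPM in WT cells and 0.637 ± 0.109 CPM in KO cells (SD, n = 3), which leaves 2.25% of the wild-type level and a log2 difference of -5.48 (SE 0.11). The remaining 66 counts in KO cells stood above the 3 counts per library (0.0815 to 0.0909 CPM in KO cells) that a count of 0 would allow. In the order of all log2 fold changes OXCT1 was number 18 from the lowest. The annotation places 229 exon bases of OXCT1 under OXCT1-AS1 on the other strand, a gene for which no row of that symbol was found in the table.

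BDH1 lies on chromosome 3 from 197509783 to 197573323 on the minus strand. It was a low gene in wild-type, with 77, 99 and 66 counts, and had 3, 2 and 2 counts in KO replicates 1 to 3. In CPM it measured 1.86, 2.54 and 1.73 in WT cells and 0.0874, 0.0543 and 0.0606 in KO cells. The groups did not overlap, and each knockout library was at or below the 3 counts that a count of 0 allows. The mean was 2.04 ± 0.436 CPM in WT cells and 0.0674 ± 0.0176 CPM in KO cells (SD, n = 3), or -4.86 on the log2 scale (SE 0.33). Since BDH1 entered the fit only through its WT libraries, this is given as a description with no test. The summed counts, scaled for depth, were 30.4-fold higher in wild-type, with a 95% exact binomial interval of 14.5 to 76.3 that covers counting error only. BDH1 was number 25 from the lowest in the order of log2 fold changes. It shared 0.897% of the 50-base words of its transcripts, 50 bases being the read length, with transcripts of other genes.

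**Figure D1:**
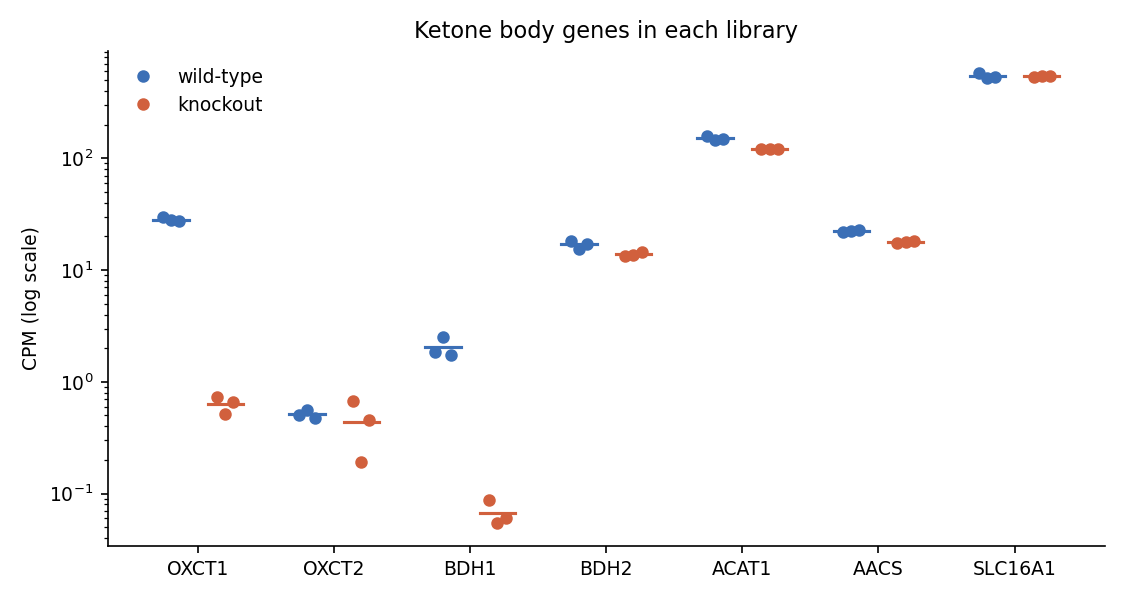
CPM (log scale) of the 7 genes in each library, with points for libraries (blue wild-type, orange knockout; 3 each) and short lines for group means. OXCT1 sits between 27.5 and 29.6 CPM in WT cells and between 0.516 and 0.728 CPM in KO cells, BDH1 between 1.73 and 2.54 and between 0.0543 and 0.0874, and the groups overlap for OXCT2 and SLC16A1.

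ACAT1, the mitochondrial thiolase that acts after OXCT1, fell by a small but even amount. It lies on chromosome 11 from 108121516 to 108147776 on the plus strand. It measured 159.7, 146 and 148 CPM in WT replicates 1 to 3 and 120.7, 122 and 122 CPM in KO replicates 1 to 3. All 3 knockout libraries lay below all 3 wild-type libraries. The means were 152 ± 7.13 and 122 ± 0.898 CPM (SD, n = 3), or -0.32 on the log2 scale (SE 0.04 and adjusted p = 0.000276 by edgeR), which left 80.3% of the wild-type level. Exons of AP002433.1 and AP002433.2, antisense genes, cover 163 and 212 exon bases of ACAT1, and the strand setting of the counting is not given in the sources used here.

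AACS, the cytosolic ligase that activates acetoacetate for lipid synthesis, fell to a like degree. It lies on chromosome 12 from 125065379 to 125143333 on the plus strand. It measured 21.7, 22.6 and 23.1 CPM in WT cells and 17.4, 17.9 and 18.4 CPM in KO cells. The groups did not overlap. The means were 22.4 ± 0.679 and 17.9 ± 0.458 CPM (SD, n = 3), or -0.33 on the log2 scale (SE 0.06 and adjusted p = 0.00222 by edgeR), which left 79.8% of the wild-type level.

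BDH2, the cytosolic dehydrogenase, lies on chromosome 4 from 103079435 to 103099883 on the minus strand. It measured 18.1, 15.6 and 17.2 CPM in WT cells and 13.3, 13.7 and 14.6 CPM in KO cells. The lowest wild-type library, replicate 2, lay only just above the highest knockout library, replicate 3. The means were 17.0 ± 1.30 and 13.9 ± 0.674 CPM (SD, n = 3), or -0.29 on the log2 scale (SE 0.08 and adjusted p = 0.0147 by edgeR). The call was lost without KO replicate 1 (adjusted p = 0.0721) and without KO replicate 2 (adjusted p = 0.0560), over a range of 0.00467 to 0.0721 for all alternatives. BDH2 also shares 397 exon bases on the same strand with SLC9B2, which had a log2 difference of -0.36 (SE 0.07), and 12.0% of its 50-base words occur in other genes' transcripts, so reads of these 2 genes may not have been told apart. Its pseudogene BDH2P1 had 2 to 17 counts per library and was not tested.

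SLC16A1, the carrier, was the most abundant of the 7 and did not differ detectably. It lies on chromosome 1 from 112911847 to 112957013 on the minus strand. It measured 578, 525 and 540 CPM in WT cells and 536, 541 and 546 CPM in KO cells, and the groups overlapped. The means were 547 ± 27.0 and 541 ± 4.99 CPM (SD, n = 3), or -0.02 on the log2 scale (SE 0.04 and adjusted p = 0.778 by edgeR). The 95% interval from the fit, -0.11 to 0.07, bounds the knockout level between 0.926 and 1.05 times that of wild-type. Antisense SLC16A1-AS1 covers 175 of its exon bases.

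OXCT2, the paralog of OXCT1, was near the limit of what these libraries can measure. It lies on chromosome 1 from 39769523 to 39771348 on the minus strand and had 21, 22 and 18 counts in WT cells and 23, 7 and 15 counts in KO cells. Knockout replicate 1 was the highest and KO replicate 2 the lowest of the 6 libraries, so the groups overlapped. The means were 0.514 ± 0.0468 and 0.438 ± 0.240 CPM (SD, n = 3), or -0.25 on the log2 scale (SE 0.36 and adjusted p = 0.645 by edgeR) with a 95% interval of -1.05 to 0.55. The differences inside that interval could not be told apart with these libraries. Its pseudogene OXCT2P1 holds 69.4% of the 50-base words of OXCT2, so its counts are uncertain, and OXCT2P1 was the only other gene that shared such a word with it.

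Per kilobase of exon, wild-type cells had most SLC16A1 mRNA, at 103 ± 5.09 CPM per kilobase, and then ACAT1 at 27.1 ± 1.28. OXCT1 was the third at 6.76 ± 0.260, followed by BDH2 at 5.02 ± 0.384, AACS at 1.39 ± 0.0422, OXCT2 at 0.282 ± 0.0256 and BDH1 at 0.224 ± 0.0478 CPM per kilobase (SD, n = 3). The libraries of each gene and of the next in this order did not overlap, except for OXCT2 and BDH1. With the length of the longest transcript in place of all exons, BDH1 came before OXCT2, at 0.576 against 0.282 CPM per kilobase. The order of the other 5 was as before, but ACAT1 stood at 67.1 and AACS at 3.38 CPM per kilobase on that length. In KO cells OXCT1 stood at 0.152 ± 0.0260 CPM per kilobase, within the range of 0.104 to 0.367 of OXCT2.

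**Figure D2:**
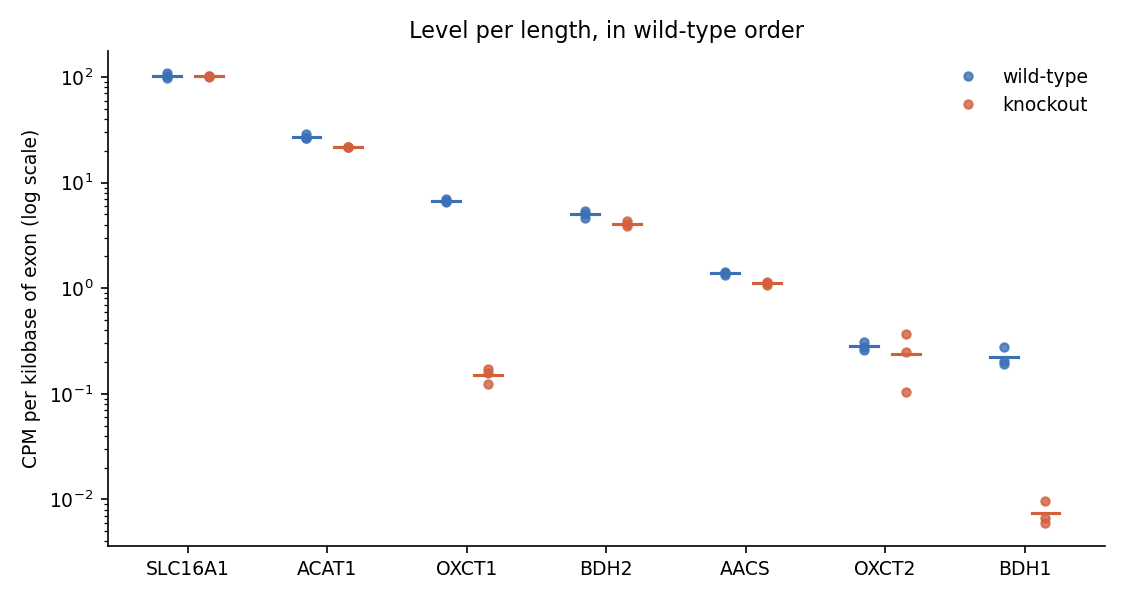
CPM per kilobase of exon (log scale) of the 7 genes in the order of their wild-type level, with points for libraries and lines for group means (3 each). OXCT1 is the third in wild-type, at 6.76, and lies beside OXCT2 in KO cells, at 0.152 against 0.240 CPM per kilobase.

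The genes around OXCT1 on chromosome 5 did not share its loss. C5orf51, which starts 33.7 kb away, measured 98.5 ± 4.14 CPM in WT cells and 99.2 ± 1.56 CPM in KO cells (SD, n = 3), a log2 difference of 0.01. FBXO4, an F-box protein gene 54.7 kb away, fell from 11.5 ± 0.118 to 8.34 ± 0.229 CPM, or -0.46 on the log2 scale (SE 0.07 and adjusted p = 0.000705 by edgeR). The growth hormone receptor gene GHR, at 553 kb, had a log2 difference of -0.24. On the other side the nearest genes with enough counts were CARD6, SNORD72 and RPL37, 870 to 897 kb away. Their log2 fold changes were -0.63, 0.63 and 0.14, none of them called in the main fit. Under the alternatives, RPL37 was called higher in 10 of 16 and CARD6 lower in 1 of 15. Over the 40 nearest genes that were tested and could be placed the median log2 fold change was -0.14 and the lowest -1.11. Of these, 12 were called lower, 4 higher and 24 not called, beside 17.7% lower and 14.0% higher among all tested genes.

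Around BDH1 the 30 nearest tested genes, of which only 10 lie on the side of the chromosome end, had a median log2 fold change of 0.00 and a lowest value of -1.65. DLG1, a scaffold protein gene, had a log2 difference of 0.13 and AC024560.3, a noncoding gene, of 0.33. No neighbour of OXCT1 or BDH1 in these sets had a log2 fold change as low as theirs. The 40 neighbours of BDH2 had a median of -0.15 beside its own -0.29, with 16 called lower and 0 higher. Those of ACAT1 had a median of -0.06 beside its own -0.32, with 10 called lower and 3 higher. CUL5 at -0.06 and NPAT at 0.14 lay on either side of ACAT1. Those of AACS had a median of 0.08 beside its own -0.33, with 5 called lower and 9 higher. BRI3BP at 0.02 and TMEM132B at -0.86 lay beside AACS. Among all tested genes 17.7% were called lower and 14.0% higher. The medians were -0.01 around SLC16A1, with AKR7A2P1 (inside the gene, on the other strand) at 0.83 and LRIG2 at 0.18, and -0.04 around OXCT2, with PPIE at -0.07 and BMP8B, which overlaps it, at -0.21.

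**Figure D3:**
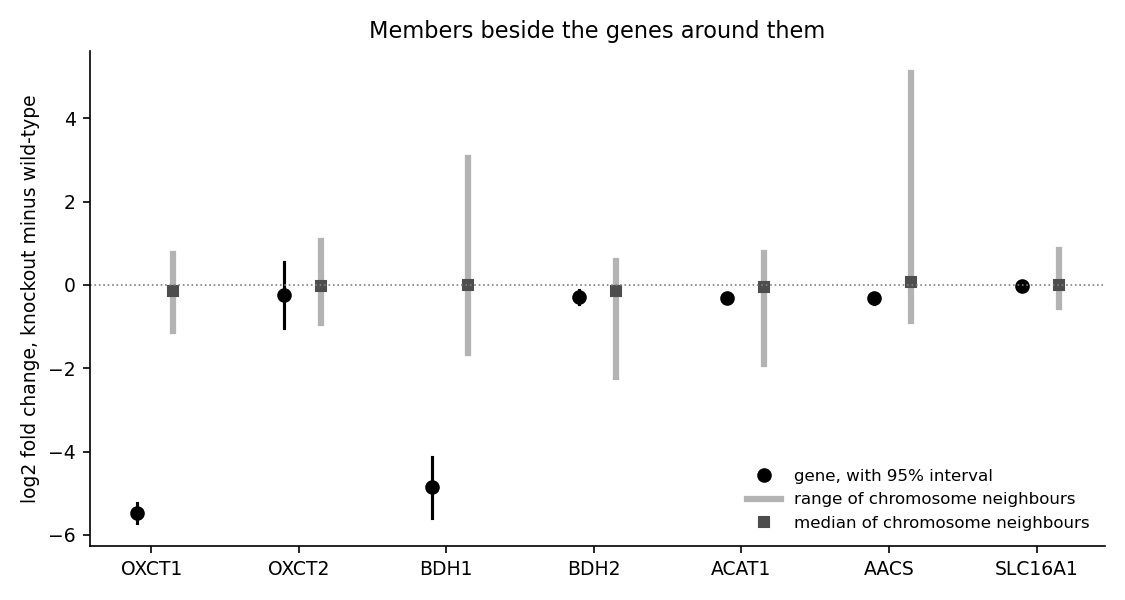
Log2 fold change (knockout minus wild-type) of each of the 7 genes with its 95% interval from the fit (black). Beside it stand the median (square) and the range (grey bar) of the nearest tested genes on its chromosome. These number 40 for each gene but 30 for BDH1. For OXCT1 and BDH1 the interval is a description with no test. OXCT1 at -5.48 and BDH1 at -4.86 lie below the whole range of their neighbours, and the other 5 lie within it.

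The genes whose profile over the 6 libraries was most like that of OXCT1 were sought among 10253 genes with at least 5 CPM in wild-type, by the distance between log2 CPM values after subtracting each gene's wild-type mean. The nearest was COL2A1, a cartilage collagen, at a distance of 0.55, with 25.7 ± 0.322 CPM in WT cells and 0.454 ± 0.0883 CPM in KO cells (SD, n = 3). The actin crosslinker gene FLNC followed at 0.96, then DECR1, an enzyme of mitochondrial fatty acid oxidation, at 1.45, the surface protein gene CD109 at 1.48 and the decoy receptor gene TNFRSF10D at 1.80. DECR1 measured 6.22 ± 0.455 and 0.211 ± 0.0262 CPM (SD, n = 3), a difference that its choice by likeness fixes. These 5 genes lie on 4 chromosomes, none of them chromosome 5. By Pearson correlation over the 6 libraries the 5 nearest shared only COL2A1 with this list. BDH1 was below 5 CPM in WT cells and so was not among the candidates.

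HMGCLL1, a lyase related to ketone body synthesis that lies outside mitochondria, fell from 1.14 ± 0.119 to 0.477 ± 0.170 CPM (SD, n = 3), or -1.25 on the log2 scale (SE 0.25 and adjusted p = 0.00327 by edgeR).

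Of 10 regulators and sensors of ketone bodies, 6 were tested, 1 rose, 1 fell and 4 were not called. Beside this, 14.0% of all tested genes were called higher and 17.7% lower, and nothing is read from the count. PPARA, the receptor that turns on ketone body synthesis in fasting liver, rose from 26.2 ± 0.492 to 40.4 ± 1.34 CPM (SD, n = 3), or 0.63 on the log2 scale (SE 0.05 and adjusted p = 9.53e-06 by edgeR). PPARGC1A, a coactivator of mitochondrial genes, fell from 4.20 ± 0.451 to 1.39 ± 0.0547 CPM, or -1.59 on the log2 scale (SE 0.13 and adjusted p = 7.87e-06 by edgeR). SIRT3 and SIRT5, mitochondrial deacylases, and CPT1A, the gate of fatty acid oxidation, were among those not called. The receptors for ketone bodies and short fatty acids were not tested, HCAR2 with under 0.05 CPM on average in each group and FFAR3 with 0 counts.

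Of 20 monocarboxylate carriers and partners, 17 were tested, 3 rose, 8 fell and 6 were not called. Their median log2 fold change was -0.20, and 17.7% of all tested genes were called lower and 14.0% higher. The 8 include SLC16A5, which passed the filter on low counts only through its WT libraries, so nothing is read from that count. SLC16A3 (MCT4), a lactate exporter of glycolytic cells, went from 1.00 ± 0.255 to 2.18 ± 0.427 CPM (SD, n = 3), or 1.12 on the log2 scale (SE 0.21 and adjusted p = 0.00230 by edgeR). SLC16A7 (MCT2), a high-affinity carrier, fell from 2.27 ± 0.215 to 0.595 ± 0.0370 CPM, or -1.93 on the log2 scale (SE 0.17 and adjusted p = 1.05e-05 by edgeR). EMB, the partner protein of SLC16A7, fell from 55.8 ± 6.13 to 27.5 ± 1.61 CPM, while BSG, the partner of SLC16A1, measured 439.8 ± 71.6 and 479 ± 40.7 CPM and was not called. MPC1, a subunit of the mitochondrial pyruvate carrier, rose by 0.17 on the log2 scale. That call was lost without WT replicate 2 (adjusted p = 0.0848), KO replicate 2 (0.0671) or KO replicate 3 (0.105). MPC2, of the same carrier, fell from 42.5 ± 1.56 to 32.3 ± 2.18 CPM, or -0.40 on the log2 scale (SE 0.06 and adjusted p = 0.000675 by edgeR). The number of carriers called higher was 1 without KO replicate 2. The 2 abundant lactate dehydrogenases fell together, LDHA by 0.24 and LDHB by 0.24 on the log2 scale, and LDHC and LDHD were not called.

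The genes on either side of the OXCT1 reaction are given beside the 17.7% of all tested genes called lower and the 14.0% called higher, and no test of a list was made. Of 10 genes that make or use succinyl-CoA, 6 fell, 0 rose and 4 were not called, with a median log2 fold change of -0.17. OGDH, the first subunit of the complex that makes succinyl-CoA, fell from 52.3 ± 1.34 to 35.5 ± 1.89 CPM (SD, n = 3), and DLD, a subunit of the same complex, by 0.29 on the log2 scale. Of 8 thiolases and users of acetoacetyl-CoA, 5 fell, 1 rose and 2 were not called, with a median of -0.22. HMGCS1, which condenses acetoacetyl-CoA for cholesterol synthesis, fell from 200.2 ± 4.95 to 147 ± 3.33 CPM and ACAA2, a mitochondrial thiolase, by 0.48 on the log2 scale, while ACAA1, the thiolase of peroxisomes, rose by 0.21. The rise of ACAA1 was lost when any KO replicate was left out (adjusted p = 0.0515 to 0.0639), and 2 members were higher without WT replicate 1. Of 12 citric acid cycle genes 5 fell, 1 rose and 6 were not called, with IDH3A and FH lower at -0.22 and -0.18 (log2). The count of 5 was 1 without KO replicate 1, where FH was also lost (adjusted p = 0.0745), 2 without WT replicate 2 or KO replicate 3, and 3 without WT replicate 3 or KO replicate 2. The 6 succinyl-CoA genes called lower were 3 without KO replicate 1.

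Of 14 genes that break down amino acids to acetoacetate or acetyl-CoA, 11 were tested, 3 fell, 0 rose and 8 were not called. Beside this list and the next, 17.7% of all tested genes were called lower and 14.0% higher. BCAT1, a cytosolic aminotransferase of branched-chain amino acids, fell from 122 ± 8.09 to 86.0 ± 3.93 CPM (SD, n = 3), and AUH, an enzyme of leucine breakdown, had a log2 difference of -0.27 whose call was lost without WT replicate 2 (adjusted p = 0.0589) or KO replicate 1 (0.0606). Only 1 of these genes was called in each of those cases. Of 15 other sources and users of acetyl-CoA, 8 fell (ACSS3 among them), 3 rose and 4 were not called. Without KO replicate 1, 3 were called lower. ACSS3, a mitochondrial ligase of short fatty acids, had 76, 68 and 65 counts in WT cells and 0, 2 and 1 in KO cells, in summed counts 61.2-fold higher in wild-type (95% interval for counting error 20.7 to 299). It passed the filter on low counts only through its WT libraries, and the ACSS3 log2 fold change of -5.78 was -6.60 without KO replicate 2 and -5.24 without KO replicate 1. ACSS1, which activates acetate in mitochondria, fell from 25.9 ± 0.913 to 14.5 ± 0.278 CPM, a log2 difference of -0.83. PDK2, a kinase that switches off pyruvate dehydrogenase, and ACLY, which makes acetyl-CoA from citrate in the cytosol, rose by 0.44 and 0.19 on the log2 scale. The other kinases of this family were split. PDK3 was called higher at 0.19, while PDK1 and PDK4 were called lower at -0.31 and -0.94 (log2).

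Together these lists held 96 genes, 85 of them tested. In KO cells 39 of these fell, 9 rose and 37 were not called. The 39 include ACSS3 and SLC16A5, which passed the filter on low counts only through their WT libraries. The genes tested had a median log2 fold change of -0.15 beside 0.00 for all tested genes. Of all tested genes 17.7% were called lower. The lists were compiled with results of these data known, so no test was made. The falls of OXCT1 and BDH1 were of another size than these, except for ACSS3 and for the carrier SLC16A5. SLC16A5 measured 0.614 ± 0.0780 and 0.0282 ± 0.0272 CPM (SD, n = 3) with a log2 difference of -4.27. It is named in this report after its value was seen. SLC16A5 had 0, 2 and 1 counts in KO replicates 1 to 3 and also passed the filter only through its WT libraries.

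**Figure D4:**
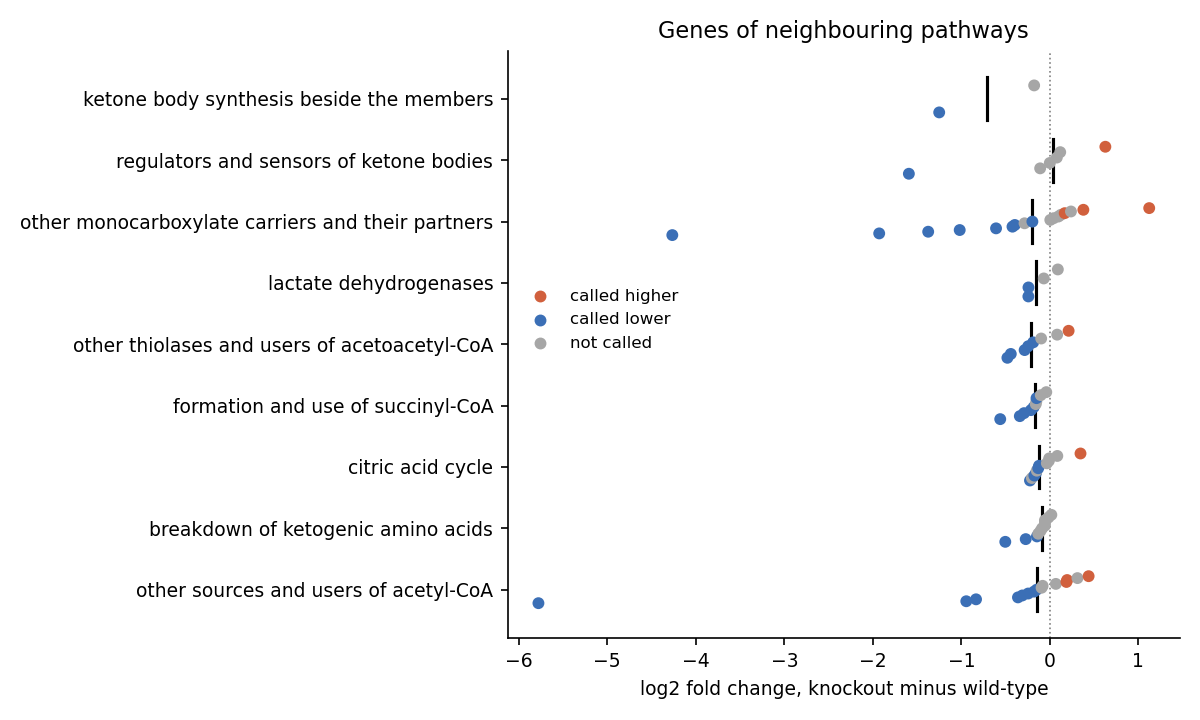
Log2 fold change (knockout minus wild-type) of each tested gene of 9 lists of related genes, with points for genes (orange called higher, blue called lower, grey not called) and black lines for list medians. Most genes lie between -1 and 0.5, with ACSS3 at -5.78 and SLC16A5 at -4.27 far to the left.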

How the data were processed

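The 6 libraries (3 WT, 3 SMARCA3 KO) were made from poly(A) RNA of HEK293T cells. The authors deposited whole-number read counts per gene symbol, 1 column per library, not normalized. The build was hg38 and the tools listed were HTSeq 0.9.1, STAR 2.4, DESeq2, Picard and Trim Galore, with no role or order stated, per the submitters' processing notes. The sources used here do not give the annotation or strand setting. Replicate pairs differed beyond counting noise, with a chi-square of 3.30 to 13.6 for each degree of freedom, and each library counts as 1 sample.

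R 4.3.3 with edgeR 4.0.16 was used to test the counts (filterByExpr, TMM, quasi-likelihood F test, two-sided, Benjamini-Hochberg over 18061 genes, threshold 0.05), and the procedure was tested on simulated data. The SE is the log2 fold change divided by the square root of F. CPM uses TMM-scaled totals of tested genes. Intervals and floors cover counting error unless stated as from the fit. Positions, exon lengths and overlaps come from GENCODE 29 (GRCh38, the build of the files), matched by current or older symbol for 29538 symbols, 77.8% of tested genes. Promoter windows of 6 of the 7 genes come from RefSeq. SLC16A1 had no entry.

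The members, lists and tests were chosen with earlier results of these data known. Named genes are the 7 members, HLTF, in each list the 2 called genes of smallest p, at most, in either direction, the nearest tested genes on the chromosome (3 on each side of OXCT1, 1 for others), the 5 genes most like OXCT1 and pseudogenes of members. SIRT3, SIRT5, CPT1A, BSG, MPC2, SLC16A5, LDHC, LDHD, PDK1, PDK3, PDK4, HCAR2, FFAR3 and the marker genes are list members named beyond that rule. Some list members that the rule names are not reported here. Alternatives were RLE factors, library size only, 2 other filters, DESeq2 1.42.0, limma-voom (limma 3.58.1), robust dispersion, a replicate block, each library left out, thinning to the smallest total and a threshold of 0.01.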

Additional observations from a re-analysis of the deposited data

How the results depend on the processing

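The log2 fold change of OXCT1 lay between -5.57 and -5.34 over 16 alternatives, and that of BDH1 between -5.06 and -4.65. ACAT1 and AACS kept their call in all 16, and OXCT2 (15 alternatives, since it had too few counts for a filter at 1 CPM) and SLC16A1 were called in none. The fold change of OXCT2 ran from -0.69 to 0.13 and that of SLC16A1 from -0.04 to 0.03, so neither has a settled direction. With a threshold of 0.01, 3477 genes were called, 1421 higher and 2056 lower, and BDH2 at -0.29 was not among them (adjusted p = 0.0147). Leaving out 1 library at a time gave -0.34 to -0.23 for BDH2. Same-numbered replicates of the groups did not deviate together (correlations -0.23, -0.01 and -0.05), so the numbers were not taken to pair the samples. With the replicate number as a block, 4232 genes were called, and the calls of MPC1, ACAA1 and AUH were lost (adjusted p = 0.0676, 0.0658 and 0.0501). DESeq2 called 3 genes lower in each of the succinyl-CoA and citric acid cycle lists. Scaling moved the median log2 fold change of all genes by at most 0.01. Depth limits OXCT2 and the knockout value of BDH1, which rests on 7 counts.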
